A study of Mus musculus with 12 samples.

Results

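The levels of 10 genes used as markers of hepatocellular carcinoma (HCC), of liver progenitor cells and of bile duct cells were followed in bulk RNA-seq of mouse liver. The genes were Afp, Gpc3, Prom1, Krt19, Spp1, Cd24a, Sox4, Epcam, Sox9 and Krt7. They were listed by name and found by mapping the Entrez identifiers of the count table to mouse symbols. All 10 were among the 27179 genes of the table. All 10 also passed the filter on low counts, which kept 13947 genes for testing.

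The study asked how dietary protein bears on liver tumors driven by human c-MET and ΔN90-β-catenin, a β-catenin without its N-terminal stretch and therefore not degraded. Male mice, 8 weeks old, were put on a chow diet (CD) or one low in protein (LPD) for 1 week and then injected into the tail vein under hydrodynamic pressure. The injected plasmids held either empty vector (Vec) or the pair of oncogenes behind an EF1α promoter, together with Sleeping Beauty transposase, which inserts them into the genome. Each mouse stayed on its diet, and all were harvested when the CD mice with oncogenes reached their end point. Vec and c-MET/β-catenin on either CD or LPD gave 4 groups with 3 libraries each, and all mice had received the same kind of injection. The Vec libraries are titled WT in the labels. The titles give the diet as chow, whereas the column names of the table write HPD for the same samples, and the titles were followed. The transgenes reach only a share of the hepatocytes, and RNA was taken from snap-frozen liver tissue, although the labels name the cell type as hepatocyte. The tissue therefore mixes cells with and without oncogenes, and in bulk RNA fewer cells of a type cannot be told apart from less RNA per cell. The labels do not name the mouse behind each library, so that p-values measure the spread between these libraries.

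Totals ranged from 19476209 to 31990267 counts per library. Values are given as CPM, a gene's share of the counts of its library after scaling by trimmed mean of M values (TMM) factors. Hepatocyte markers summed to between 61937 and 112600.2 CPM, and macrophage, stellate and endothelial markers were detected in all 12 libraries. The summed level of 6 targets of β-catenin was 869 to 1314 CPM in Vec libraries, 6998 to 8946 CPM with oncogenes on CD and 2652 to 4385 CPM in LPD c-MET/β-catenin, so the sum lay above every Vec library in all 6 livers with oncogenes. Most of it came from Glul, glutamine synthetase, with a mean of 7523.5 CPM with oncogenes on CD, but Axin2 and Nkd1 separated the 6 livers from Vec as well, with Axin2 at 24.1 to 94.8 CPM against 6.66 to 11.5 CPM, whereas Lgr5, Tbx3 and Rnf43 overlapped with Vec on LPD. A header line of the table gives a number for each column, and these numbers fall into 3 runs that the labels do not explain. The first run held CD c-MET/β-catenin replicates 1 and 2, another held CD Vec replicates 1 and 2 with LPD Vec replicate 1, and the remaining 7 libraries formed run 2. On CD, replicate 3 of each group was therefore the only library that shared a run with the other injection.

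Oncofetal genes are active in the fetal liver, are shut down after birth and are switched on again in many liver tumors, which is why α-fetoprotein is measured in patient blood and glypican-3 in biopsies. Progenitor and biliary markers are normally held by the cells that line bile ducts and by the small cells that expand around them in liver injury. Adult hepatocytes can take up part of this program, for which Sox9, osteopontin, Cd24 and the cytokeratins of ducts are the usual readouts.

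The stretches just upstream of the start of Afp, Spp1 and Sox4 are shown because Afp rose on both diets and Spp1 and Sox4 on CD, as described next. They are from RefSeq, build GRCm38.p6, 5′ to 3′ on the strand of the gene, with motif matches in capitals. The Afp stretch is chr5:90490464-90490713 on the + strand, and its capitals mark TATAAA, the TATA box.
Afp: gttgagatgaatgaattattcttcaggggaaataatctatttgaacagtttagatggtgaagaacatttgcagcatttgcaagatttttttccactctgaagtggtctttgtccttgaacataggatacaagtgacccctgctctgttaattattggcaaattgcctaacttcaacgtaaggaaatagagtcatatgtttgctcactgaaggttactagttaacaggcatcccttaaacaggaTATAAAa
The Spp1 stretch is chr5:104434861-104435110 on the + strand, and its capitals mark the same motif.
Spp1: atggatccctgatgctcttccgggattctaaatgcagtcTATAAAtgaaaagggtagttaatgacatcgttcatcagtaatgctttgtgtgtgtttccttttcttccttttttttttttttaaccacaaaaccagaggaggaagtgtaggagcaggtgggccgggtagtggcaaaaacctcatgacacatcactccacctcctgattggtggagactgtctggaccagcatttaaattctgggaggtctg
The Sox4 stretch is chr13:28953714-28953949 on the - strand, and its capitals mark GGAATG, the core of the TEAD motif, and then TGGGAA, the core of the RBPJ motif.
Sox4: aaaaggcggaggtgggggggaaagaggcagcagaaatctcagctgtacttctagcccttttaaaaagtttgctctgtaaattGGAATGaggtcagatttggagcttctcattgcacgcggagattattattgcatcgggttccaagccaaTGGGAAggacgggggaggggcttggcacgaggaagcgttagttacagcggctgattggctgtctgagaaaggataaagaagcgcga

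In Afp, TATAAA began 7 bases before the RefSeq start. In Spp1, it began 211 bases before the start. In Sox4, GGAATG began 168 bases and TGGGAA 100 bases before the RefSeq start, which lies within the GENCODE gene, and the stretch shown ends where the GENCODE gene begins and thus short of the RefSeq start. The RefSeq table had entries for 7 of the 10 genes, with none for Sox9, Krt19 and Cd24a. Each motif was searched on both strands in the 250 bases before each start. Spp1 and Prom1 each had 2 starts, and Spp1 is shown for the upstream one. Prom1 held a further TGGGAA on the opposite strand, beginning 116 bases before its upstream start, a position within the GENCODE gene. The TCF/LEF motif CTTTGAT, which β-catenin complexes bind, was in none of the 9 stretches. Over all 32851 promoters in the table, CTTTGAT was found in 3.21%, GGAATG in 12.6%, TGGGAA in 21.6% and TATAAA in 12.4%. None of these motifs overlapped another in the stretches shown, and a match describes letters only.

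Among the 10 genes, 3 patterns were found. Afp, Gpc3 and Prom1 were higher with oncogenes on both diets. Krt19, Spp1, Cd24a and Sox4 were higher with oncogenes on CD, and their log2 fold changes on LPD lay between -0.34 and -0.04. Epcam, Sox9 and Krt7 were not called in any comparison. On CD, 7 of the 10 were called higher and 0 lower, where 18.7% of all genes tested were called higher. On LPD, 3 of the 10 were called higher, against 1.15% of all genes tested. Between diets among the oncogene livers, 6 of the 10 were called lower on LPD, against 11.3% of all genes. The median log2 fold change of the 10 genes was 2.85 on CD, -0.13 on LPD and -2.03 for LPD against CD in c-MET/β-catenin livers, beside medians over all tested genes of -0.01, 0.01 and -0.01. These comparisons share libraries and are not independent of each other.

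**Figure D1:**
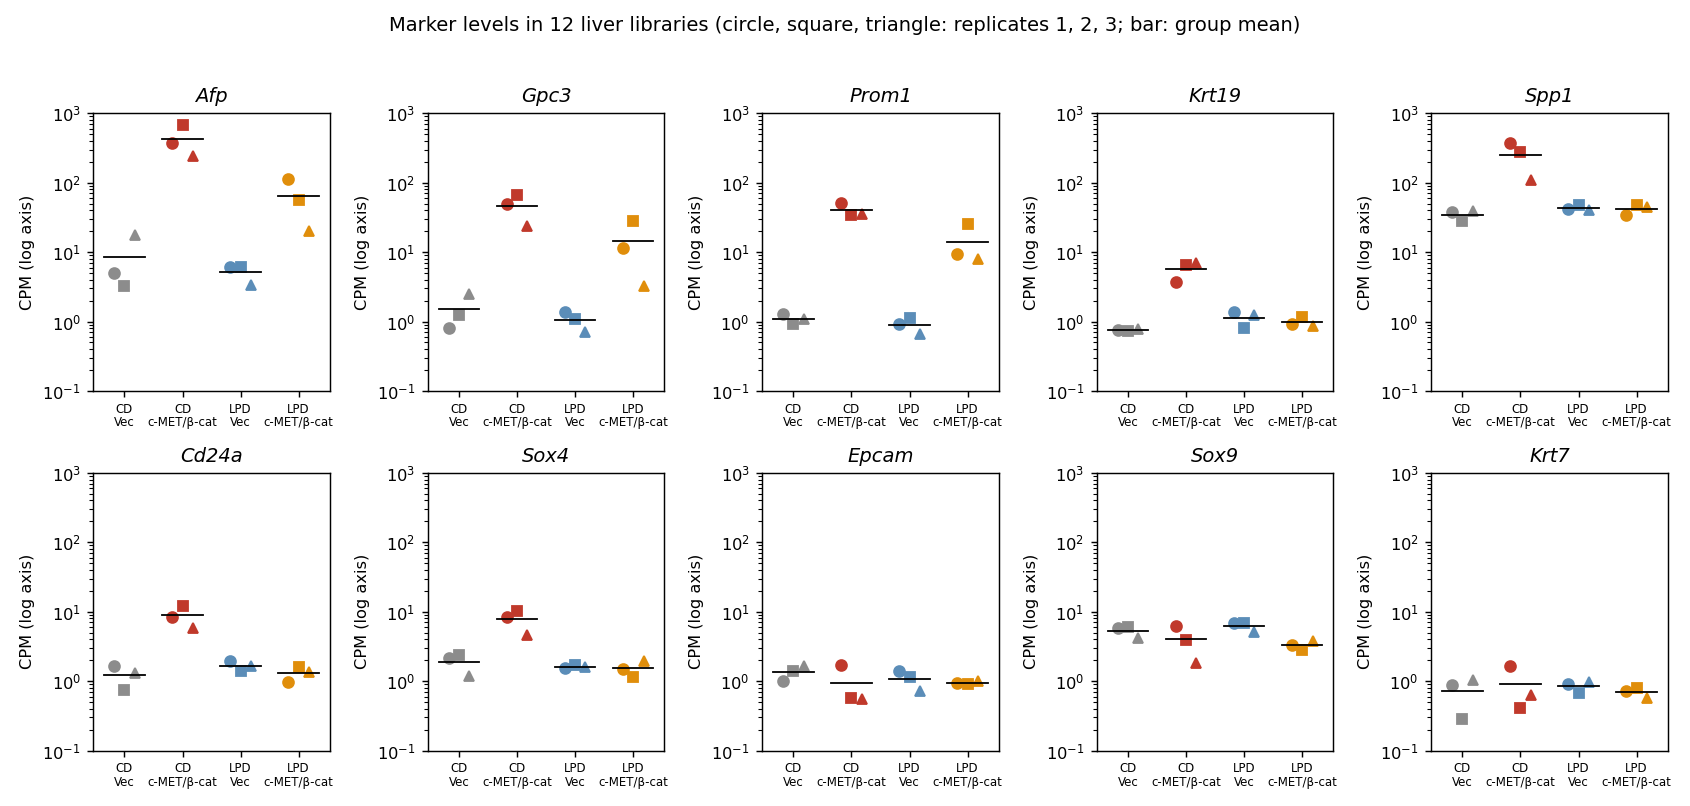
Level of each of the 10 genes in CPM on a log axis, for the 4 groups, where circles, squares and triangles are replicates 1, 2 and 3 and bars are group means. Afp, Gpc3 and Prom1 stand above both Vec groups on either diet, Krt19, Spp1, Cd24a and Sox4 stand apart only in CD c-MET/β-catenin, and Epcam, Sox9 and Krt7 stay between 0.284 and 6.89 CPM throughout.

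The secreted oncofetal marker was Afp (Entrez 11576, chr5:90490737-90508907, + strand), which encodes α-fetoprotein, the main serum protein of the fetus. On CD, Afp was at 5.09, 3.24 and 17.6 CPM in the Vec replicates and at 370.2, 671 and 245 CPM in the c-MET/β-catenin replicates. On LPD, it was at 6.09, 6.04 and 3.39 CPM in Vec and at 115, 56.5 and 20.3 CPM in c-MET/β-catenin. The oncogene groups did not overlap with either Vec group, and every LPD c-MET/β-catenin library was below every CD c-MET/β-catenin library. Of all tested genes, 4.42% had all oncogene libraries above all Vec libraries and 20.1% had the LPD oncogene libraries below those on CD. The lowest of them, at 20.3 CPM, was close to the highest CD Vec library at 17.6 CPM. By edgeR's quasi-likelihood test, Afp rose on CD by 49.5-fold (log2 fold change 5.63 ± 0.81 SE, adjusted p = 0.000435) and 12.3-fold on LPD (3.62 ± 0.75, adjusted p = 0.0419). In c-MET/β-catenin livers Afp was lower on LPD than on CD, with a log2 fold change of -2.75 ± 0.70 (adjusted p = 0.019).

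The call of Afp on LPD was close to the threshold. It was made in 3 of 12 fits with 1 library left out, at log2 fold changes of 2.89 to 4.04 and adjusted p of 0.0163 to 0.2001. The difference between diets was called in 9 of 12 such fits, and was lost without replicate 2 of CD c-MET/β-catenin (adjusted p = 0.0575) and without replicate 2 of LPD c-MET/β-catenin (0.0654) or 3 (0.0538). Without replicate 1 of LPD c-MET/β-catenin the difference between diets was -3.47. Afp was called on CD in all 12, at log2 fold changes from 5.15 without replicate 2 of CD c-MET/β-catenin to 6.68 without replicate 3 of CD Vec, and at 4.45 with a term for the header runs in the fit. Within run 2, where CD had 1 library per injection, the difference in log2 CPM between oncogenes and Vec was 3.79 on CD and 3.47 on LPD, against 5.87 and 3.33 over all libraries.

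The cell surface proteoglycan Gpc3 (Entrez 14734, chrX:52272426-52613950, - strand) encodes glypican-3, a fetal growth regulator that is used as a tissue marker of HCC. On CD, Gpc3 was at 0.815, 1.25 and 2.50 CPM in Vec and at 49.5, 67.1 and 23.8 CPM in c-MET/β-catenin. The LPD libraries were at 1.39, 1.1 and 0.718 CPM in Vec and at 11.4, 28.1 and 3.24 CPM in c-MET/β-catenin. Both oncogene groups lay above both Vec groups, and the oncogene groups of the diets overlapped, since LPD replicate 2 exceeded CD replicate 3. Gpc3 rose on CD by 30.6-fold (log2 fold change 4.94 ± 0.76, adjusted p = 0.000583) and 13.3-fold on LPD (3.73 ± 0.75, adjusted p = 0.0373). The log2 difference of LPD from CD in c-MET/β-catenin livers was -1.71 with a 95% interval of -3.08 to -0.34, and it missed the threshold after adjustment (adjusted p = 0.0768).

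As with Afp, the LPD call of Gpc3 held in 5 of 12 fits with 1 library left out, at log2 fold changes of 2.76 to 4.20 and adjusted p of 0.00472 to 0.1697, and the lowest value was that without replicate 2 of LPD c-MET/β-catenin. On CD the 12 values were 4.58 to 5.51, and the term for the header runs gave 3.74. Without the same library, which had the highest Gpc3 of its group, the difference between diets became -2.68 and was called (adjusted p = 0.0176). Within run 2 the CD difference in log2 CPM was 3.21, against 4.88 over all libraries.

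Prom1 (Entrez 19126, chr5:43993620-44102032, - strand) encodes prominin-1 or CD133, a membrane protein of biliary and progenitor cells that is also used to sort tumor-initiating cells. On CD, Prom1 was at 1.27, 0.91 and 1.09 CPM in Vec and at 51.4, 34.0 and 35.6 CPM in c-MET/β-catenin. On LPD, it was at 0.912, 1.14 and 0.667 CPM in Vec and at 9.28, 25.2 and 8.0 CPM in c-MET/β-catenin. The order CD c-MET/β-catenin, LPD c-MET/β-catenin and Vec held for every library, and the Vec groups of the diets overlapped. Prom1 rose on CD by 36.7-fold (log2 fold change 5.20 ± 0.46, adjusted p = 2.75e-05) and 15.5-fold on LPD (3.95 ± 0.45, adjusted p = 0.00182). In c-MET/β-catenin livers it was lower on LPD by a log2 fold change of -1.50 ± 0.37 (adjusted p = 0.0147).

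Of the 3 genes with this pattern, Prom1 varied least between CD c-MET/β-catenin livers, with an SD of log2 CPM of 0.33. Its LPD rise was called in all 12 fits that left out 1 library, at 3.23 to 4.23, and in all 7 other settings. Its difference between diets was called in 9 of the 12, and was lost without replicate 1 of CD c-MET/β-catenin (adjusted p = 0.0505) and without replicate 1 of LPD c-MET/β-catenin (0.0576) or 3 (0.0536). Without replicate 2 of LPD c-MET/β-catenin, its highest library on LPD, the LPD rise was 3.23 and the difference between diets -2.22. Within run 2 the CD difference in log2 CPM was 4.92, against 5.09 over all libraries.

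The injection by diet interaction, the log2 fold change on LPD minus that on CD, asks whether the rise differed between the diets. It was -2.01 for Afp with a 95% interval of -4.16 to 0.14, -1.21 for Gpc3 with an interval of -3.47 to 1.05, and -1.24 for Prom1 with an interval of -2.62 to 0.13. None was called, with adjusted p of 0.224, 0.502 and 0.239. The interaction of Prom1 became -1.96 (adjusted p = 0.016) without replicate 2 of LPD c-MET/β-catenin.

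Within LPD c-MET/β-catenin, these 3 genes differed between livers more than nearly all others. The SD of log2 CPM was 1.55 for Gpc3, 1.25 for Afp and 0.89 for Prom1, where the median over tested genes was 0.18. A larger SD was found in 0.416% of tested genes for Gpc3, 0.832% for Afp and 2.63% for Prom1. Replicate 3 was the lowest of its group for all 3, and also for the summed β-catenin targets, at 2652 CPM against 4385 and 4119 CPM. The same library was lowest for 5 summed proliferation markers, at 15.1 CPM against 34.4 and 45.2 CPM. The part of these lists in the differences was not tested.

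Other oncofetal genes were read from a list of 15, of which 10 were tested. On CD, 7 were called higher and 1 lower, with a list median of 2.13, where 18.7% of all genes tested were called higher and 16.7% lower. These 2 shares are also those to set beside the CD counts of the gene lists that follow. Among the 7 genes called higher, the call of Hmga2 held in 4 of 12 fits with 1 library left out. H19, an imprinted non-coding RNA of fetal liver, was at 0.968, 0.455 and 0.469 CPM in CD Vec and at 75.0, 93.6 and 134 CPM in CD c-MET/β-catenin. In LPD c-MET/β-catenin H19 was at 3.66, 3.44 and 0.787 CPM, and it was lower than on CD by a log2 fold change of -5.25 ± 0.54 (adjusted p = 0.000333). It was the only gene of the list called in the interaction, at -5.13 ± 0.94 (adjusted p = 0.0109), and this call was lost without replicate 2 of LPD Vec (adjusted p = 0.076).

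Dlk1, a membrane ligand of fetal hepatoblasts, showed another course. It was at 11.4, 16.6 and 4.83 CPM in CD c-MET/β-catenin and at 16.4, 10.8 and 4.07 CPM in LPD c-MET/β-catenin, and no Vec library exceeded 0.156 CPM. Both rises were called by edgeR's test (adjusted p = 0.000187 on CD and 0.00301 on LPD), and the oncogene groups of the diets overlapped. Vec libraries held 0 to 3 counts, and Dlk1 passed the filter on low counts through its oncogene libraries, so no fold is given. Golm1, a Golgi protein raised in HCC, was the other gene of the list called higher on LPD (log2 fold change 2.11 ± 0.37, adjusted p = 0.0153), after 3.76 on CD, and its LPD call was lost without replicate 1 or 3 of LPD Vec. Of all genes tested, 1.15% were called higher on LPD. Between diets among the oncogene livers, 4 genes of the list were lower on LPD, with Igf2 at -2.65, and 2 were higher, with Peg3 at 2.46, where 11.3% of all genes were lower and 8.66% higher. Without replicate 1 of LPD c-MET/β-catenin, Igf2 was at -3.63. Igf2bp1, Lin28a, Lin28b, Sall4 and Dkk1 had too few counts to be tested, with Lin28b and Dkk1 at 0 in every library.

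Genes that regulate Afp were read as a list of 11 transcription factors, all tested. Zhx2, which represses Afp and H19 after birth, had a log2 fold change of -0.08 on CD and 0.11 on LPD, and was at 14.0 to 26.6 CPM in all libraries. Zbtb20, another postnatal repressor of Afp, was at -0.51 on CD and 0.05 on LPD. Neither was called in any of the 5 comparisons. On CD, 2 factors were called lower, Cebpa at -1.16 ± 0.19 (adjusted p = 0.000615) and Foxa2 at -0.71 ± 0.16 (adjusted p = 0.00454), and 0 were called higher. The count of 2 in 11 was near the 16.7% of all genes called lower. On LPD, 0 of the 11 were called. Cebpa was higher on LPD than on CD among the oncogene livers (0.78 ± 0.18, adjusted p = 0.0126). In the interaction Cebpa (1.01, adjusted p = 0.0349) and Foxa2 (0.80, 0.0468) were called above 0, in 5 and 2 of 12 fits with 1 library left out.

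**Figure D2:**
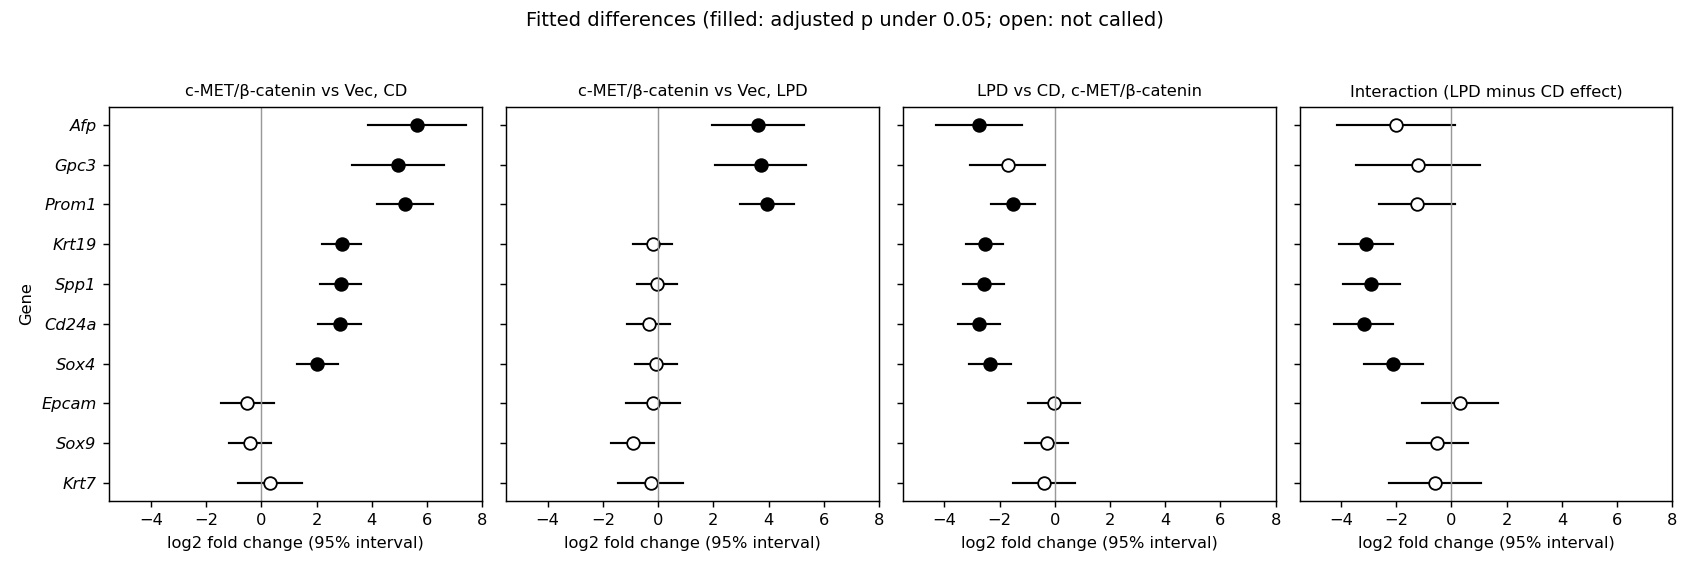
Log2 fold change of each gene with its 95% interval in 4 comparisons, with filled points for an adjusted p under 0.05. The 3 upper genes lie to the right of 0 on both diets, the next 4 lie to the right of 0 on CD, near 0 on LPD and to the left of 0 in the columns of the diet difference and the interaction, and the lowest 3 are open throughout.

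The duct and progenitor markers with a rise on CD opened with Krt19 (Entrez 16669, chr11:100140810-100148665, - strand), the cytokeratin by which pathologists recognize bile ducts and a subset of HCC. On CD, Krt19 was at 0.764, 0.739 and 0.781 CPM in Vec and at 3.67, 6.57 and 7.04 CPM in c-MET/β-catenin. The LPD libraries were at 1.39, 0.803 and 1.23 CPM in Vec and at 0.928, 1.16 and 0.875 CPM in c-MET/β-catenin. The 3 CD c-MET/β-catenin libraries lay above the other 9, as in 13.3% of all tested genes, while both LPD groups overlapped. Behind these values stood 127 to 188 counts in CD c-MET/β-catenin and 13 to 33 counts elsewhere. Krt19 rose on CD by 7.50-fold (log2 fold change 2.91 ± 0.32, adjusted p = 7.05e-05), and on LPD its log2 fold change was -0.20 with a 95% interval of -0.89 to 0.50. In c-MET/β-catenin livers it was lower on LPD by -2.53 ± 0.31 (adjusted p = 0.000536).

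Spp1 (Entrez 20750, chr5:104435118-104441050, + strand) encodes osteopontin, a secreted matrix protein of bile ducts that is also made by some macrophages and by activated stellate cells. On CD, Spp1 was at 37.3, 28.3 and 38.6 CPM in Vec and at 368, 280.3 and 111 CPM in c-MET/β-catenin. On LPD, it was at 41.9, 48.1 and 40.9 CPM in Vec and at 34.8, 47.1 and 45.4 CPM in c-MET/β-catenin. All 9 libraries outside CD c-MET/β-catenin fell between 28.3 and 48.1 CPM, and replicate 3 was the lowest of the 3 that stood above them. Spp1 rose on CD by 7.29-fold (log2 fold change 2.87 ± 0.35, adjusted p = 0.000127), and on LPD its log2 fold change was -0.04 with a 95% interval of -0.75 to 0.67. In c-MET/β-catenin livers it was lower on LPD by -2.58 ± 0.34 (adjusted p = 0.000871). With a term for the header runs in the fit, CD c-MET/β-catenin rests on replicate 3 alone. The CD rise was then 1.57 and the difference between diets -1.38.

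Cd24a (Entrez 12484, chr10:43578284-43584265, + strand) encodes the surface glycoprotein CD24 of progenitor cells, which red cell precursors and B cells also carry. On CD, Cd24a was at 1.63, 0.739 and 1.30 CPM in Vec and at 8.52, 12.2 and 5.77 CPM in c-MET/β-catenin. The LPD libraries were at 1.97, 1.39 and 1.64 CPM in Vec and at 0.977, 1.58 and 1.36 CPM in c-MET/β-catenin. Again the 3 CD c-MET/β-catenin libraries lay above the other 9, and the LPD groups overlapped. Cd24a rose on CD by 7.14-fold (log2 fold change 2.84 ± 0.35, adjusted p = 0.000133), and on LPD its log2 fold change was -0.34 with a 95% interval of -1.11 to 0.42. In c-MET/β-catenin livers it was lower on LPD by -2.74 ± 0.35 (adjusted p = 0.000604).

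Sox4 (Entrez 20677, chr13:28948919-28953713, - strand) encodes a transcription factor of progenitors that acts beside Sox9 in bile duct formation. On CD, Sox4 was at 2.14, 2.39 and 1.2 CPM in Vec and at 8.38, 10.3 and 4.6 CPM in c-MET/β-catenin. On LPD, it was at 1.54, 1.69 and 1.59 CPM in Vec and at 1.51, 1.16 and 1.92 CPM in c-MET/β-catenin. The CD c-MET/β-catenin libraries did not overlap with the other 9, which lay between 1.16 and 2.39 CPM. Sox4 rose on CD by 4.07-fold (log2 fold change 2.02 ± 0.34, adjusted p = 0.000833), and on LPD its log2 fold change was -0.07 with a 95% interval of -0.84 to 0.69. In c-MET/β-catenin livers it was lower on LPD by -2.34 ± 0.34 (adjusted p = 0.00118).

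The interaction was called below 0 for 4 of the 10 genes, where 4.42% of all genes were called below 0. The 4 were Krt19 at -3.10 ± 0.45 (adjusted p = 0.00353), Spp1 at -2.91 ± 0.47 (adjusted p = 0.00598), Cd24a at -3.18 ± 0.49 (adjusted p = 0.00463) and Sox4 at -2.10 ± 0.49 (adjusted p = 0.0241). The sizes of these interactions were close to those of the CD rises themselves. The calls of Krt19, Spp1 and Cd24a held in all 12 fits that left out 1 library. That of Sox4 held in 8 of 12 and was lost without replicate 1 of LPD c-MET/β-catenin (adjusted p = 0.0536) or 2 (0.0535) and without replicate 2 of LPD Vec (0.0675) or 3 (0.0554). The CD rise and the difference between diets among the oncogene livers were called for all 4 genes in all 12 fits.

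Because CD c-MET/β-catenin replicates 1 and 2 formed a run of their own, the differences were also computed within run 2, without a test since CD then had 1 library per injection. On CD the difference in log2 CPM was 1.52 for Spp1 against 2.71 over all libraries, 2.08 against 2.76 for Cd24a, 3.04 against 2.73 for Krt19 and 1.87 against 1.96 for Sox4. The interaction was -3.06 for Krt19 against -2.90 over all libraries, and -1.99 against -2.05 for Sox4. It was -2.30 against -3.11 for Cd24a and -1.60 against -2.76 for Spp1. All 4 thus kept their sign with the remaining CD pair, which was not the case for Gpc3, whose interaction was 0.18 within run 2 against -1.69 over all libraries. With a term for the runs in the edgeR fit, that term takes up CD c-MET/β-catenin replicates 1 and 2. The CD, diet and interaction values of this fit therefore rest on replicate 3 of that group. Its calls there cannot tell run from group. In the interaction Krt19 and Spp1 (-1.66) stayed called, whereas Cd24a (-2.60) and Sox4 (-1.52) did not. On CD the calls of Gpc3 (3.74) and Sox4 (1.57) were lost. Between diets among the oncogene livers those of Afp (-1.94) and Prom1 (-1.32) were lost, and Cd24a and Sox4 became -2.13 and -1.59. On LPD, which does not involve that group, the calls of Afp (3.24, adjusted p = 0.162) and Gpc3 (3.58, 0.122) were lost as well.

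**Figure D3:**
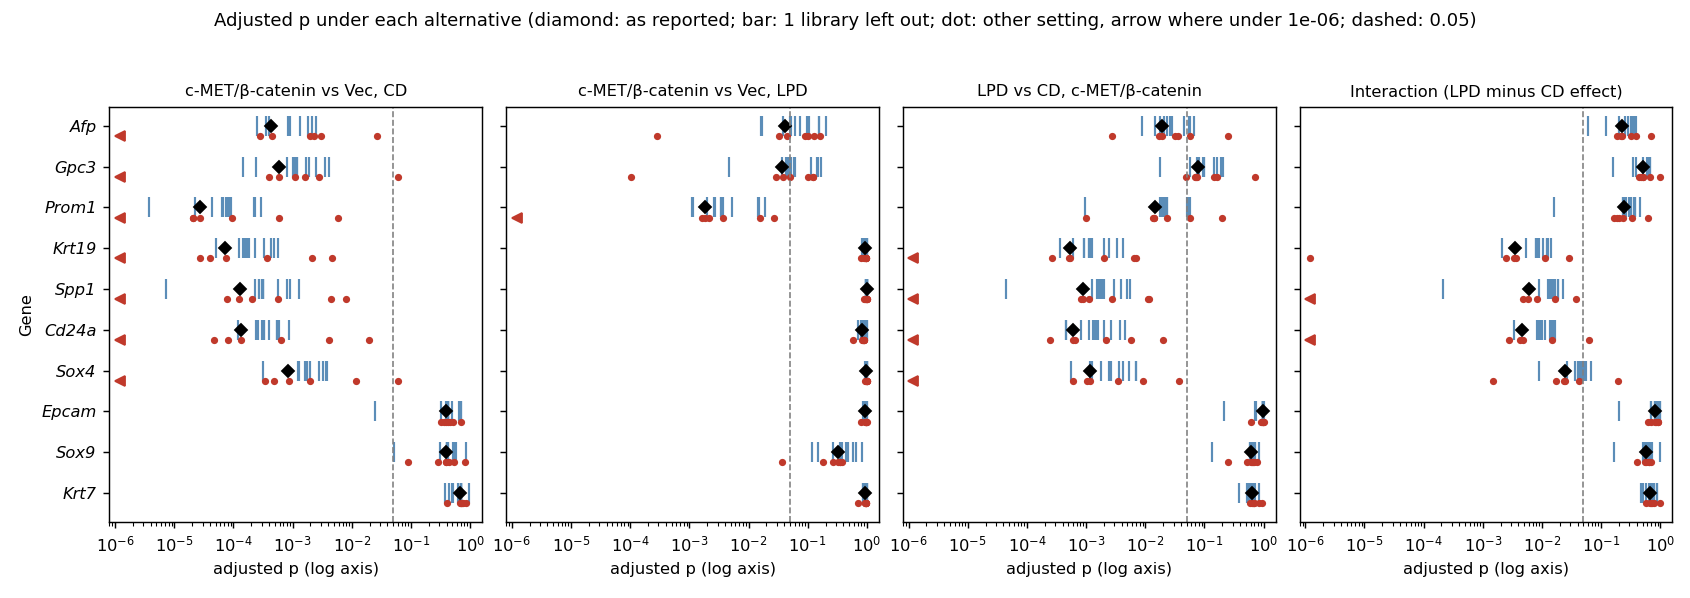
Adjusted p of each gene on a log axis in 4 comparisons, as reported (diamonds), with 1 library left out (bars) and under the other settings (dots, with an arrow at the left edge for values under 1e-06), beside the threshold of 0.05 (dashed line). Krt19 and Spp1 stay left of the line in the CD, diet and interaction columns, whereas Afp and Gpc3 fall on both sides of it on LPD.

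The 3 duct markers that were not called opened with Epcam (Entrez 17075, chr17:87635979-87651129, + strand), the epithelial adhesion molecule of bile ducts and of some progenitor-like HCC. On CD, Epcam was at 1.02, 1.42 and 1.67 CPM in Vec and at 1.70, 0.571 and 0.562 CPM in c-MET/β-catenin. The LPD libraries were at 1.39, 1.14 and 0.718 CPM in Vec and at 0.928, 0.912 and 1.01 CPM in c-MET/β-catenin. Vec and c-MET/β-catenin overlapped on each diet, on 14 to 59 counts per library. The log2 fold change of Epcam was -0.50 on CD with a 95% interval of -1.45 to 0.45 and -0.19 on LPD with an interval of -1.17 to 0.78. The upper bound on CD lies below the lower bounds of all 7 genes that rose there. Without replicate 1 of CD c-MET/β-catenin, the one library of its group above 0.571 CPM, Epcam was called lower on CD (-1.26 ± 0.37, adjusted p = 0.0245).

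Sox9 (Entrez 20682, chr11:112782224-112787760, + strand) encodes the transcription factor of bile duct identity, which hepatocytes near the portal tract can express. On CD, Sox9 was at 5.76, 6.08 and 4.22 CPM in Vec and at 6.30, 3.88 and 1.83 CPM in c-MET/β-catenin. On LPD, it was at 6.81, 6.89 and 5.13 CPM in Vec and at 3.32, 2.81 and 3.80 CPM in c-MET/β-catenin. The CD groups overlapped, whereas the LPD groups did not, with every c-MET/β-catenin library below every Vec library, as in 11.6% of all tested genes. The log2 fold change of Sox9 on LPD was -0.92 with a 95% interval of -1.70 to -0.15, and it missed the threshold over all genes (adjusted p = 0.327 by edgeR's quasi-likelihood test). With the LPD groups alone in the fit it was called lower (adjusted p = 0.0369). On CD it was -0.41 with an interval of -1.18 to 0.36. With 1 library left out the CD value lay between -0.91 and -0.07 and was called in 0 of 12 fits. Within run 2 the CD difference in log2 CPM was -1.16, against -0.56 over all libraries.

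Krt7 (Entrez 110310, chr15:101411043-101430313, + strand) encodes a further cytokeratin of bile ducts. It was at 0.866, 0.284 and 1.04 CPM in CD Vec, at 1.68, 0.408 and 0.636 CPM in CD c-MET/β-catenin, at 0.912, 0.676 and 0.974 CPM in LPD Vec and at 0.733, 0.807 and 0.569 CPM in LPD c-MET/β-catenin. All groups overlapped, on 5 to 58 counts per library, so that small differences were not detectable at this depth. Its log2 fold change was 0.33 on CD with a 95% interval of -0.83 to 1.49 and -0.27 on LPD with an interval of -1.45 to 0.91.

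In CD c-MET/β-catenin, Epcam, Sox9, Krt7, Spp1 and Prom1 were highest in replicate 1, whereas Afp, Gpc3, Cd24a and Sox4 were highest in replicate 2 and Krt19 in replicate 3. The summed level of 17 other biliary epithelial genes was highest in replicate 1, at 3288 CPM against 1480.5 and 1266 CPM in replicates 2 and 3. This sum was 517 to 664 CPM in the other 9 libraries, and the keratins Krt8 and Krt18, which hepatocytes share with ducts, contributed 1942 and 934.7 CPM to it in replicate 1.

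Diet without oncogenes gave no call among the markers. Between LPD Vec and CD Vec, 0 of the 10 genes were called, against 0.308% of all genes in either direction, with log2 fold changes from -0.74 for Afp to 0.57 for Krt19. By edgeR's test 0 of the 10 had an unadjusted p under 0.05, and DESeq2 also called 0. The LPD Vec libraries lay above the CD Vec libraries without overlap for Krt19 and Spp1, as they did in 8.13% of all tested genes, with 17.2% not overlapping in either direction, and the Vec groups of the other 8 genes overlapped. The 95% interval of Afp reached from -2.31 to 0.83 and that of Krt19 from -0.16 to 1.30, so that changes of these sizes were not detectable with 3 libraries a group. The values of Afp and Gpc3 turned from -0.74 and -0.50 to 0.32 and 0.07 without replicate 3 of CD Vec, the library with the highest Afp and Gpc3 of all Vec livers.

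Ordered by group mean, the CD c-MET/β-catenin level was the highest for Afp, Gpc3, Prom1, Krt19, Spp1, Cd24a and Sox4. It was also the highest for Krt7, which was not called, at 0.907 CPM against 0.854 CPM in LPD Vec. For Afp the order continued with LPD c-MET/β-catenin (63.9 ± 47.7 CPM, SD, n = 3), CD Vec (8.64 ± 7.81) and LPD Vec (5.17 ± 1.55), after 429 ± 219 CPM in CD c-MET/β-catenin. The difference between the Vec groups was not called. For Prom1 it ran from 40.3 ± 9.62 CPM through 14.2 ± 9.58 to 1.09 ± 0.182 and 0.906 ± 0.237 CPM in the same order of groups. For Spp1 the last 3 places were LPD Vec at 43.6 ± 3.92, LPD c-MET/β-catenin at 42.4 ± 6.62 and CD Vec at 34.7 ± 5.64 CPM. Of these, the pairs tested (LPD Vec with CD Vec and with LPD c-MET/β-catenin) were not called. For Sox9 the highest mean was that of LPD Vec at 6.28 ± 0.994 CPM, and the lowest that of LPD c-MET/β-catenin at 3.31 ± 0.499 CPM.

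Other genes of the biliary epithelium were listed as 17, of which 13 were tested. On CD, 5 were called higher and 2 lower, with a list median of 0.37, beside 18.7% and 16.7% of all genes. The tetraspanin Tspan8 had the largest change, from 0.341 to 1.09 CPM in CD Vec to 27.5 to 35.6 CPM with oncogenes on CD (log2 fold change 5.30 ± 0.61, adjusted p = 0.000101). It was followed by Onecut1, a transcription factor of hepatoblasts and ducts, at -2.71 ± 0.54 (adjusted p = 0.00268), and the keratin Krt23 at -2.66 ± 0.51 (adjusted p = 0.00195). Cdh1, Krt8, Krt18 and Anxa4 made up the other 4 that rose. On LPD, 0 of the 13 were called. In the interaction 5 were called below 0, with Tspan8 at -3.90, and 1 above 0, Onecut1 at 3.72, where 4.42% of all genes were called below 0 and 4.49% above 0. With 1 library left out, the calls of Tspan8 and Krt8 were lost without replicate 2 of LPD Vec, that of Cdh1 held in 5 of 12 fits, and those of Krt18, Anxa4 and Onecut1 held in all 12. The value of Tspan8 was -4.81 without replicate 2 of LPD c-MET/β-catenin. Among genes of mature ducts, Cftr, Sctr and Cldn4 had too few counts to be tested.

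The Notch pathway, through which portal cells induce Sox9 and duct fate, was read from 11 genes. On CD, the ligands Jag1 (log2 fold change 1.25 ± 0.32, adjusted p = 0.0101) and Jag2 (adjusted p = 0.00152) were called higher and 0 genes lower, and 2 in 11 was near the 18.7% of all genes called higher. Jag2 was at 0.0521 to 0.114 CPM in CD Vec, which is 1 to 2 counts per library, and between 0.524 and 0.751 CPM with oncogenes on CD, so no fold is given. The receptors Notch1, Notch2 and Notch3, the mediator Rbpj and the targets Hes1, Hey1 and Heyl were not called, with log2 fold changes from -0.19 for Notch2 to 1.25 for Hey1. On LPD 0 of the 11 were called, and Jag1 and Jag2 were lower on LPD in c-MET/β-catenin livers at -1.1 and -1.67, calls that held in 8 and 9 of 12 fits with 1 library left out.

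Effectors and targets of YAP and TEAD, which mark growth and duct-like change in hepatocytes, were read from 10 genes. On CD, 6 were called higher and 1 lower. The largest changes were those of Ankrd1 at 3.75 ± 0.53 (adjusted p = 0.000285), Ccn1 at 1.96 ± 0.38 (adjusted p = 0.00226) and Ccn2 at 1.86 ± 0.60 (adjusted p = 0.0313). Ankrd1 had 35 to 135 counts per library with oncogenes on CD and passed the filter on low counts through that group. It had 4 to 5 counts in CD Vec, 6 to 14 in LPD Vec and 4 to 9 in LPD c-MET/β-catenin, so the size of its values is uncertain. Ccn2 was at 38.5, 18.8 and 4.68 CPM with oncogenes on CD, so that replicate 3 lay below the CD Vec libraries, at 4.89 to 6.46 CPM, and its call held in 7 of 12 fits with 1 library left out, with 1.04 (adjusted p = 0.163) without replicate 1. On LPD 0 were called. Ankrd1 and Ccn1 were called below 0 in the interaction, at -4.48 and -2.02, which held in 12 and in 2 of the 12 fits.

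Receptors of osteopontin were read from 6 genes. Cd44, a hyaluronan and osteopontin receptor of progenitors and tumor cells, rose on CD by a log2 fold change of 2.41 ± 0.33 (adjusted p = 0.00025), and the integrin subunits Itgb5 and Itgb1 rose by 0.54 and 0.37, calls that held in 8 and 2 of 12 fits with 1 library left out. On LPD 0 of the 6 were called, and Cd44 was at 0.99. Between diets among the oncogene livers Cd44 was lower on LPD by -1.51 ± 0.31 (adjusted p = 0.00667).

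Markers of other cells moved in the same comparisons, to be read beside the 18.7% of all genes called higher and 16.7% called lower on CD and the 11.3% called lower on LPD among oncogene livers. On CD, 5 of 10 macrophage markers were called higher, among them Gpnmb at 4.14, Trem2 at 3.11 and Itgax at 2.28. Gpnmb was at 2.63, 1.18 and 20.2 CPM with oncogenes on CD, and without replicate 3 it was at 2.07 (adjusted p = 0.0759) on CD and at -2.16 (0.0866) between diets. The summed level of the list was 258 to 312 CPM with oncogenes on CD, 194 to 327 CPM in LPD c-MET/β-catenin and 99.0 to 202 CPM in Vec. Between diets among the oncogene livers 4 of the 10 were lower on LPD, Gpnmb at -4.21, Trem2 at -2.81, Lyz2 at -0.94 and Cd68 at -0.90, and Trem2 (-2.52) and Lyz2 (-1.09) were also called below 0 in the interaction, in 9 and 3 of 12 fits with 1 library left out. The diet calls of Gpnmb and Cd68 held in 8 and 9 of the 12. Clec4f, the Kupffer cell gene, was not called there, with means of 62.0 CPM on CD and 100.3 CPM on LPD. On LPD Itgax was the only macrophage marker called higher, at 1.92, in 6 of the 12 fits. Of 7 stellate cell markers, 4 rose on CD and 0 on LPD, led by Col1a1 at 3.92, Acta2 at 2.91 and Col3a1 at 1.85, and Lrat of quiescent stellate cells fell by 1.42 on the log2 scale. On LPD, 4 of the 7 were lower than on CD among the oncogene livers, Col1a1 at -3.89, Acta2 at -2.27, Col3a1 at -1.86 and Reln at -0.91, while Lrat was higher at 1.26, and Col1a1 was called below 0 in the interaction at -3.53, in 3 of the 12 fits. The diet calls of Reln, Acta2 and Col3a1 held in 4, 8 and 9 of the 12. Acta2 on CD was at 2.18 without replicate 1 of CD c-MET/β-catenin. The stellate sum was 542, 565 and 212 CPM in CD c-MET/β-catenin replicates 1, 2 and 3, and 89.1 to 176 CPM elsewhere. Replicate 3 was the lowest of its group for Spp1, Cd24a and Sox4 too, but the highest for Krt19. Of 5 erythroid markers, 4 were called higher on CD, with Slc4a1 at 4.84, Hba-a1 at 3.31 and Hbb-bs at 1.97, and 0 on LPD. The value of Slc4a1 rests on 2 to 7 counts per library in CD Vec. Hba-a1 was at 24.9, 1.92 and 2.88 CPM with oncogenes on CD, and without replicate 1 its CD value was 1.26 (adjusted p = 0.0702). Of the 5, 4 were lower on LPD than on CD among the oncogene livers and 3 were below 0 in the interaction. Slc4a1 was one of them, at 4.77 to 9.70 CPM on CD and at 0.195, 0.14 and 0 CPM on LPD, which is 0 to 4 counts, so no fold is given. Alas2, which was not called (-0.81 on CD), made up most of the erythroid sum, with means of 191.1 CPM in CD Vec and 109.2 CPM with oncogenes on CD, so the sum does not show the rise of the other 4. The sum was 79.1 to 273.6 CPM with oncogenes on CD and 100.9 to 221.2 CPM in the other libraries. Of 7 tested B cell and neutrophil markers, S100a8 and S100a9 were called higher on CD at 2.20 and 1.95, and no B cell gene was. S100a8 and S100a9 were lower on LPD among the oncogene livers, at -2.28 and -2.21, and were called below 0 in the interaction, in 8 and 5 of 12 fits with 1 library left out. Without replicate 1 of CD c-MET/β-catenin, S100a9 was at 1.28 on CD and at -1.54 between diets. The sum of that list, in which Ly6g was not tested, was 8.54 to 17.2 CPM with oncogenes on CD and 4.21 to 9.08 CPM elsewhere. The part of these cells in the values of Spp1, Cd24a, Sox4 and Krt19 was not tested.

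**Figure D4:**
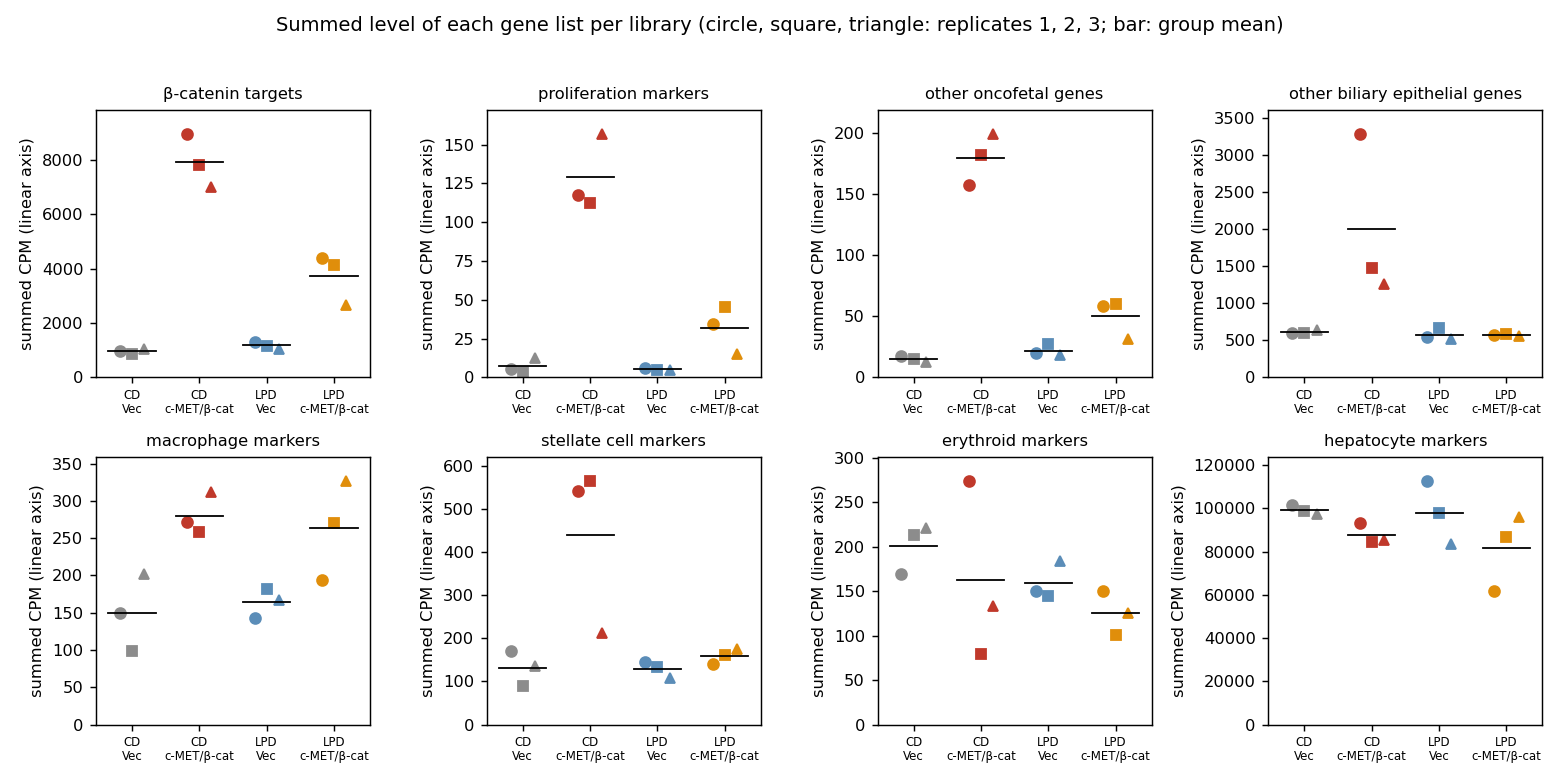
Summed CPM of 8 gene lists in each library on linear axes from 0, with circles, squares and triangles for replicates 1, 2 and 3 and bars for group means. The β-catenin targets, proliferation markers and other oncofetal genes lie between the Vec and the CD level in LPD c-MET/β-catenin, whereas the other biliary genes lie at 559 to 584 CPM there, within the range of the Vec livers.

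The genes whose pattern was most like that of a marker were taken as those with the smallest root mean square difference in centred log2 CPM over the 12 libraries, among 12980 genes. For Afp these were Meg3 (0.59), Rian (0.63) and Cpe (0.66), and for Gpc3 they were Airn (0.60) and Mki67 (0.61). Prom1 was nearest to Lef1 (0.48), Rasgrf2 (0.51) and Tuba8 (0.51). Among the genes with a rise on CD, Krt19 was nearest to Ermap (0.32), Panx1 (0.32) and Vsig10 (0.34), and Spp1 to C1qtnf6 (0.27), Col5a2 (0.27) and Klf6 (0.31). Cd24a was nearest to Spp1 itself (0.34), then to Sparc (0.35) and Lgals1 (0.35), and Sox4 to Scube1 (0.37), A2ml1 (0.38) and Nes (0.39). Epcam was nearest to Fgf1 (0.21), Sox9 to Pde1a (0.25) and Krt7 to Zc3h12c (0.23), and these distances are small for any gene that varies little. All libraries enter these distances, which therefore reflect the group differences described above as well as single livers.

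Some counts may hold reads of neighbours. In GENCODE M21, antisense or other opposite-strand genes overlap Afp, Gpc3, Krt7, Prom1 and Sox4, and the strand setting of the counting is not given in the sources used here, so reads of both strands may have been joined. On the same strand, Gm42793 overlaps Spp1, Gm42716 overlaps Prom1, and Mir6384 and Mir717 lie in Gpc3, whatever the strand setting. Epcam, Sox9, Krt19 and Cd24a overlap no other annotated gene.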

How the data were processed

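RNA-seq was done by the authors on 12 mouse livers, and the deposited values are raw counts per gene without normalization. Per the labels and the study's methods, reads were aligned to mm10 with HISAT2, counted with featureCounts and compared with DESeq. Tool versions and the strand setting are not given in the sources used here. The labels name depletion of ribosomal RNA for the libraries, whereas the methods name mRNA selection. Entrez identifiers were matched to symbols of RefSeq GRCm38.p6 (25275 genes) and GENCODE M21 (18 more), and 1886 had none.

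Counts were tested in R 4.3.3 with edgeR 4.0.16 (TMM factors, filterByExpr, robust quasi-likelihood test), with 1 coefficient per group and all 12 libraries in 1 fit. Adjustment followed Benjamini and Hochberg over 13947 genes, and an adjusted p under 0.05 was called. Common dispersion was 0.0537, a biological coefficient of variation of 23.2%. Standard errors were taken as the size of the log2 fold change divided by the root of F. Log2 CPM used a prior count of 2. Totals of 19476209 to 31990267 counts leave genes near 1 CPM with few counts, as given beside them. The fit was tested on simulated data with known changes in a small part of the genes and without header runs. That test does not cover changes as wide as those on CD, or the runs.

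Alternatives were other scalings, no filter on low counts, DESeq2 1.42.0, only the groups compared, a replicate block, a term for the header runs, and leaving out each library, which was extended to called genes of the lists after their values were seen. Named genes were the 10 markers in all libraries and, of each context list, the 3 called genes with the largest changes, those not tested, and Zhx2 and Zbtb20. Beyond that rule, Hbb-bs, Hes1, Hey1 and other list members that were not called or ranked lower were named after their values were seen. The hepatocyte list held 7 symbols, of which Tf was not matched. The markers and lists were chosen with earlier results of these data known. Some genes and a motif that these rules would name are not reported here.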

Additional observations from a re-analysis of the deposited data

Results flagged for a closer look

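For 4 of the 10 markers the change with oncogenes differed between the diets by the interaction term of edgeR's quasi-likelihood test, with Benjamini-Hochberg adjustment over all genes. The interaction log2 fold change of Krt19 was -3.10 ± 0.45 SE (adjusted p = 0.00353), after a rise on CD in 3 of 3 libraries. It was -2.91 ± 0.47 for Spp1 (adjusted p = 0.00598) and -3.18 ± 0.49 for Cd24a (adjusted p = 0.00463). It was -2.10 ± 0.49 for Sox4 (adjusted p = 0.0241). For all 4, every CD c-MET/β-catenin library exceeded all other libraries, as in 13.3% of all tested genes, and the groups of 3 were too small for a test of single outlying libraries. In the interaction 4 of 6 β-catenin targets and 1 of 5 proliferation markers were also called below 0, against 4.42% of all genes. With 1 library left out, Glul (-1.39) and Axin2 (-1.63) held in all 12 fits, Rnf43 (-1.33) in 3 and Lgr5 (-2.4) in 1. The paper reported reduced tumor burden on LPD when the CD mice with oncogenes reached their end point. The part of these differences in the marker values was not tested.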

How the results depend on the processing

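Markers called on CD numbered 7 under every setting except the header-run term (5) and the fit without replicate 1 of CD c-MET/β-catenin (8, with Epcam lower); leaving out a library gave 7 to 8. On LPD 3 were called, 1 with no filter on low counts, with the replicate block or with the header-run term, 2 (Prom1 higher, Sox9 lower) with only the groups compared, and 1 to 3 with a library left out. For diet in Vec 0 were called throughout. With the header-run term, counts that involve CD c-MET/β-catenin rest on replicate 3 of that group alone. For diet among oncogene livers 6 were called, 5 with no filter on low counts (Afp lost, adjusted p = 0.0561), 5 with only the groups compared (Prom1 lost, 0.0574), 4 with the header-run term (both lost) and 4 to 6 with a library left out; for the interaction 4, 3 to 4 with a library left out, and 2 with the header-run term. The replicate block gave 7 calls on CD, 7 for diet among oncogene livers, where Gpc3 was added (adjusted p = 0.0497), and 4 for the interaction. Replicate numbers did not pair the libraries, since 2 of 18 same-numbered pairs had a correlation of deviations over 0.1, and 3 of 12 libraries correlated best with their own number.

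Some directions turned, for values reported between -0.74 and 0.33 that were not called, and the cause was not tested. With total counts only, Spp1 (0.0676) and Sox4 (0.0314) were above 0 on LPD; this scaling moved the median of all genes from -0.01 to 0.28 on CD, gave 4469 genes higher and 1201 lower there against 2603 and 2330, and in the interaction 369 and 902 against 626 and 617. With the header-run term, Krt7 on CD (-0.40), Sox4 on LPD (0.048), Epcam (0.75), Sox9 (0.85) and Krt7 (0.15) for diet among oncogene livers, and Sox9 (0.49) and Krt7 (0.0147) in the interaction changed sign, and calls over all genes fell from 4933 to 945 on CD and from 1243 to 85 in the interaction. The block turned Epcam (0.0795) for diet among oncogene livers.

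Leaving out 1 library, values that turned ranged on CD from -0.49 to 0.67 for Krt7; on LPD from -0.41 to 0.018 for Epcam, -0.12 to 0.083 for Spp1 and -0.27 to 0.0996 for Sox4; for diet in Vec from -1.14 to 0.32 for Afp, -0.81 to 0.0724 for Gpc3 and -0.17 to 0.55 for Krt7; for diet among oncogene livers from -0.28 to 0.74 for Epcam, -0.62 to 0.22 for Sox9 and -0.72 to 0.42 for Krt7; and in the interaction from -0.94 to 0.22 for Krt7. Of the alternative fold changes, 869 kept direction and side of the threshold, 42 lost the call, 5 gained one and 24 turned. With 3 libraries a group, genes near 1 CPM rest on few counts.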

Other observations

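All 5 proliferation markers rose on CD, with Ccnb1, a mitotic cyclin, at 5.23, Mki67, the antigen Ki-67, at 4.73 and Top2a, topoisomerase II, at 4.6 on the log2 scale, and 3 of them rose on LPD, where 1.15% of all genes were called higher. The LPD calls of Mki67, Ccnb1 and Birc5, the gene of survivin, held in 9, 8 and 8 of the 12 fits with 1 library left out, and all 3 were lost without any 1 of the LPD Vec replicates. Without replicate 3 of CD Vec the CD values of Ccnb1, Mki67 and Top2a were 6.13, 5.56 and 5.37. Between diets among the oncogene livers all 5 were called lower on LPD, with a list median of -2.22, where 11.3% of all genes were. The diet call of Cdk1 held in 10 of 12 fits with 1 library left out. Top2a was also called below 0 in the interaction at -2.74, in 11 of the 12 fits. Summed, the 5 markers reached 112.6 to 156.9 CPM with oncogenes on CD, 15.1 to 45.2 CPM with oncogenes on LPD and 3.7 to 12.5 CPM in Vec. Of 6 tested hepatocyte markers, Serpina1c, a protease inhibitor of plasma, fell by 1.99 and Ttr, transthyretin, by 0.87 on CD, while Alb was at -0.20 and was not called, and on LPD 0 of the 6 were called.

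Among sinusoidal endothelial markers, Clec4g fell by 1.09 on CD and was the only gene of 6 that was called there. It was higher on LPD than on CD in c-MET/β-catenin livers at 1.37.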
